A study of Mus musculus with 6 samples.

Results

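The genes described here are those of transport in the primary cilium, the *Bbs* genes and the genes of Hedgehog signaling in undifferentiated mouse embryonic stem cells (mESCs). They were chosen by name: genes whose symbol begins with *Ift* or *Bbs* and a digit, *Tctn1* to *Tctn3*, and 23 listed genes. In all, 45 genes of 15375 named genes on the arrays were found: 28 transport genes, 8 *Bbs* genes and 9 Hedgehog genes, with 76 probe sets between them. *Rpgrip1l*, *Tctn1* and *Shh* were not matched to a probe set and were not analysed here. Of several probe sets for a gene the one with the highest mean stands for it.

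WT mESCs and mESCs that lack *Alkbh1*, a dioxygenase of the AlkB family, were compared on 3 microarrays each, all at passage 8 and day 0, before any differentiation. Both lines have a C57BL/6 background and were derived from littermate embryos of heterozygous parents. They were untreated and were kept with leukemia inhibitory factor on irradiated embryonic fibroblasts, so fibroblast RNA can be present in both. The array descriptions carry a single code for each genotype, and the labels do not say what the code stands for. Nothing in them says that the arrays of a genotype came from separate cultures. A difference between the genotypes is therefore also a difference between whatever the codes stand for, and these cannot be told apart.

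The primary cilium is an antenna of the cell surface built and maintained by intraflagellar transport (IFT). Kinesin-2 moves cargo toward the tip with the IFT-B complex, and a dynein motor returns it with the IFT-A complex. The BBSome carries membrane proteins out of the cilium, and the transition zone gates its base. In vertebrates, Hedgehog signals are processed there: without a ligand, PTCH1 keeps SMO out of the cilium, and when a ligand binds, SMO enters and the GLI factors turn from repressors into activators.

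As values, the authors' mean log2 value over all 6 arrays was used for every probe set, and the authors' mean intensity in WT and in *Alkbh1*-/- mESCs where their class comparison of the genotypes gives it. That class comparison lists probe sets with a nominal p under 0.05, by its header, out of 7320 that passed a filter. A gene not listed there has no group means in the values used here, and its absence says nothing about the size of its difference. Single arrays were not analysed here, so the group means carry no error, every difference between them is given without a test, and overlap between the groups cannot be judged. The targeted gene fitted the labels. *Alkbh1* had a mean intensity of 761 in WT and 25.7 in *Alkbh1*-/- mESCs at probe set 1434660_at, a log2 difference of −4.89 (*Alkbh1*-/- minus WT, as throughout). Its dimmer probe set, 1438681_at, had mean intensities of 120.0 and 34.6.

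The cilium genes were of ordinary brightness on the arrays. Over the 45 genes, the median of the mean log2 values was 7.37, against 7.30 for all named genes, and 26 genes (57.8%) lay at or above the latter value. The range ran from 3.81 for *Hhip* to 10.63 for *Ift46*. Separately, the median percentile among all named genes was 52.5 for the transport genes, 42.6 for the *Bbs* genes and 51.1 for the Hedgehog genes. Brightness depends on the probes as well as on the transcript, so these values place a probe set in the range of the array and do not rank the amounts of transcript. Labelled as embryonic stem cells, the cultures showed bright pluripotency markers: all 11 markers looked at lay above the median of all genes, among them *Pou5f1* at 12.64 and *Sox2* at 12.66, while 0 of 5 neuroectoderm and 0 of 7 mesendoderm markers did.

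**Figure D1:**
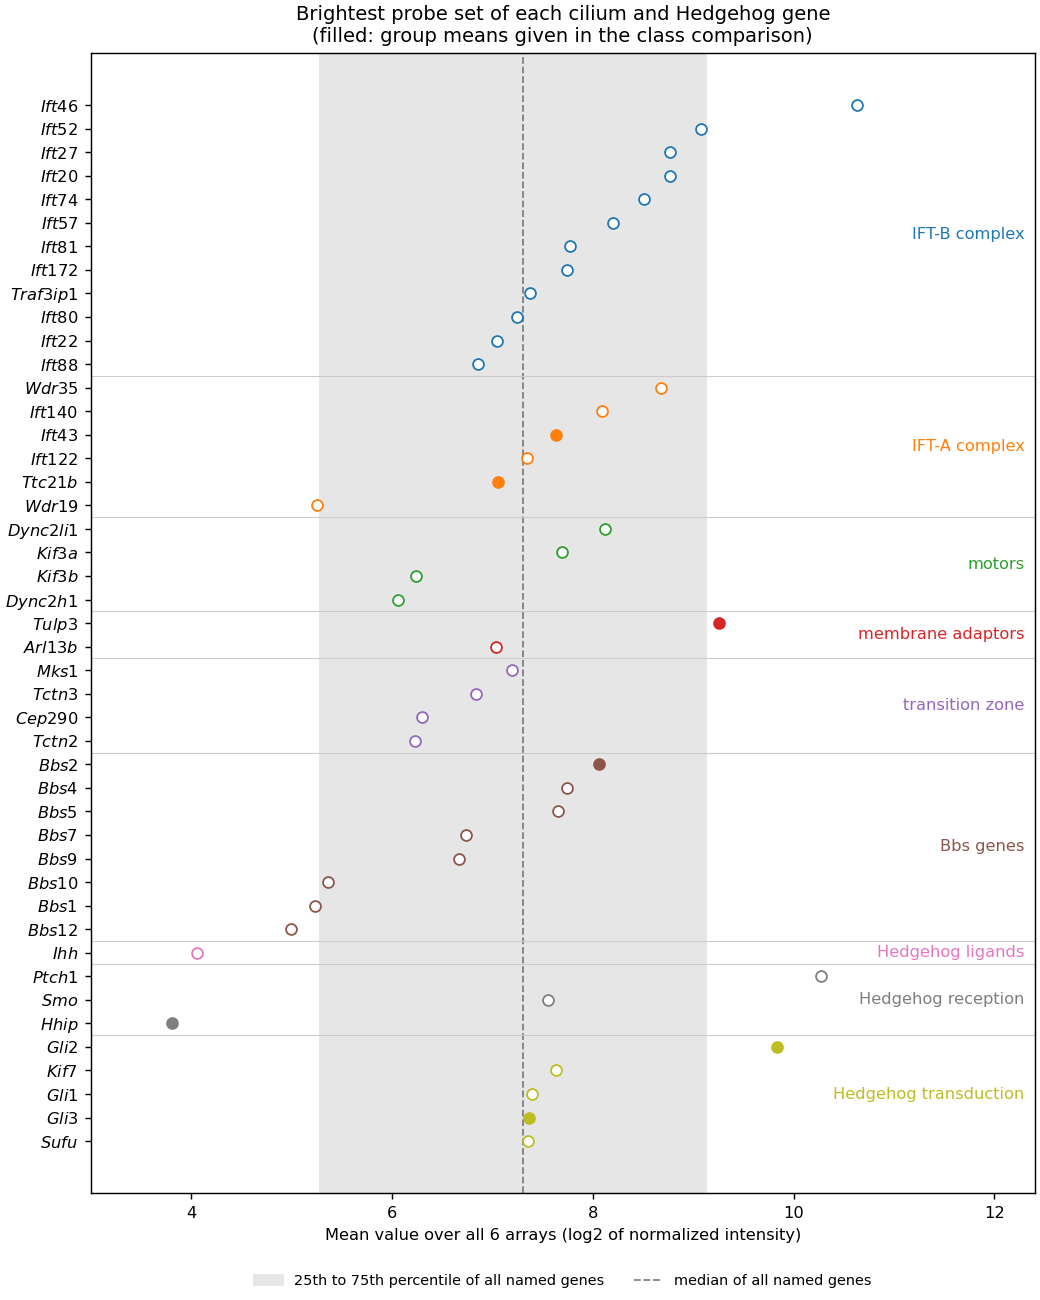
Mean log2 value over all 6 arrays (horizontal axis) of the brightest probe set of each of the 45 genes, grouped by role, with the 25th to 75th percentile of all named genes shaded and their median dashed. Filled points are the 7 genes whose brightest probe set has group means in the class comparison; *Ift46* (10.63), *Ptch1* (10.27) and *Gli2* (9.84) lie farthest to the right.

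The IFT-B genes encode the complex of transport toward the tip. Their mean log2 values lay between 6.85 (*Ift88*, whose loss prevents cilium formation) and 10.63 (*Ift46*), and 9 of 12 were at or above the median of all genes. *Ift52*, a core subunit, was at 9.08, and *Ift20*, which also works at the Golgi, at 8.77. *Traf3ip1*, which encodes IFT54, was at 7.37. *Ift27*, *Ift74* and *Ift57* were at 8.77, 8.51 and 8.20, *Ift81* and *Ift172* at 7.78 and 7.74, and *Ift80* and *Ift22* at 7.24 and 7.05. None of these 12 genes had a probe set in the class comparison, where 18.4% of all named genes had one, and with 12 genes nothing is read from that count. Of the genes of further IFT-B subunits that the choice by name did not take in, *Cluap1*, *Ttc26*, *Ttc30a1* and *Ttc30b* were not listed with any probe set, and *Hspb11* was listed and is described with the other cilium genes.

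The IFT-A genes, which serve return transport and the entry of membrane proteins, included the largest difference among the genes of the group that had group means. *Ttc21b* (1455322_at), which encodes IFT139, had a mean intensity of 207 in WT and 84.8 in *Alkbh1*-/- mESCs, 2.44-fold lower without *Alkbh1* (log2 difference −1.29). A dimmer probe set of *Ttc21b*, 1453520_at, in the lowest 19.9% of probe sets, had means of 29.3 in WT and 18.8. At that level the value is limited by signal over background, and nothing further is read from it. *Ift43* (1432494_a_at), a small subunit of the complex, had means of 249 and 158, 1.57-fold lower in *Alkbh1*-/- mESCs. For *Wdr35*, which encodes IFT121, the brightest probe set (mean log2 value 8.68) was not listed, and a dimmer one, 1440318_at, was higher in *Alkbh1*-/- mESCs, with means of 70.3 and 99.2. The dimmer probe set does not settle a direction for *Wdr35*. *Ift140*, *Ift122* and *Wdr19*, at mean log2 values of 8.09, 7.34 and 5.25, were not listed.

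*Ift43* lies on chromosome 12, as does *Alkbh1*, and so does *Wdr35*, described above. In the RefSeq order of assembly GRCm38.p6, 15 named genes lie between *Ift43* and *Alkbh1*. Of these, 2 (13.3%) were in the class comparison with their brightest probe set, near the 14.9% of all named genes. *Esrrb*, a pluripotency factor, was higher in *Alkbh1*-/- mESCs (means of 1910 in WT and 2801), and *Vash1* was lower (123 and 92.0). A part of the targeted locus in the value of *Ift43* was not tested. *Ttc21b* is on chromosome 2, and none of the 45 genes is X-linked.

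The motor genes were measured without a listed difference. *Kif3a* and *Kif3b*, the motor subunits of kinesin-2, were at mean log2 values of 7.69 and 6.23, and each is represented by 4 probe sets, none in the class comparison. *Dync2h1*, the heavy chain of the return motor, was at 6.06, and *Dync2li1*, its light intermediate chain, at 8.12. Of the genes for membrane targeting, *Tulp3*, whose product links IFT-A to membrane receptors, was lower in *Alkbh1*-/- mESCs at 1449008_at, with means of 736 in WT and 506 (1.45-fold, log2 difference −0.54). Its 2 dimmer probe sets were not listed. *Arl13b*, a ciliary GTPase, was at a mean log2 value of 7.03 and not listed.

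The transition zone genes were *Mks1*, *Tctn3*, *Cep290* and *Tctn2*, at mean log2 values of 7.19, 6.84, 6.30 and 6.23. All 4 lay under the median of all genes, and none was listed. *Tctn2* is the gene of the whole group whose promoter held a match to the RFX motif, or X-box, through which RFX factors are known to act on cilium genes. The motif was searched as GTTNCCATG on both strands, in windows from 250 bases before to 50 bases after each RefSeq gene start. It was found for 1 of the 40 genes with a window and for 2.22% of all 27025 genes. The share among the 40 cilium and Hedgehog genes (2.50%) was therefore near that of all genes. The window of *Tctn2*, chr5:124598499-124598798 on the plus strand of GRCm38.p6, is shown because it holds 2 matches on that strand, in capitals, which begin 62 bases before and 13 bases after the gene start.

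*Tctn2*: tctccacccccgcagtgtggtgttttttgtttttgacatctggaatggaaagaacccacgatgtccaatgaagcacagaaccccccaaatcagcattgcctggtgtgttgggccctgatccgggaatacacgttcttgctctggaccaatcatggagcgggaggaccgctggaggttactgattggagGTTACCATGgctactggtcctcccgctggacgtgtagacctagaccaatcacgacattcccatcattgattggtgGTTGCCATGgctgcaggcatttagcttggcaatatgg

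The GLI motif, searched as GACCACCCA in the same windows on both strands, was found in 0 of the 40 genes and in 0.289% of all genes. A window without a match says only that these letters are not in it.

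The *Bbs* genes encode the BBSome and its assembly factors. Their mean log2 values lay between 4.99 (*Bbs12*) and 8.06 (*Bbs2*), and 3 of 8 were at or above the median of all genes. *Bbs2* (1424478_at), a subunit of the core, was lower in *Alkbh1*-/- mESCs, with mean intensities of 339 in WT and 210.3, a 1.61-fold difference (log2 difference −0.69). *Bbs4*, which serves late in assembly of the complex, was listed only with its dimmest probe set, 1434460_at, and in the other direction, with means of 75.3 in WT and 114 in *Alkbh1*-/- mESCs (1.51-fold). Its 2 brighter probe sets, at mean log2 values of 7.74 and 7.41, were not listed. *Bbs1*, *Bbs5*, *Bbs7* and *Bbs9*, also BBSome subunits, were at 5.24, 7.65, 6.74 and 6.67, and *Bbs10*, a chaperonin-like factor, at 5.37, none of them listed.

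**Figure D2:**
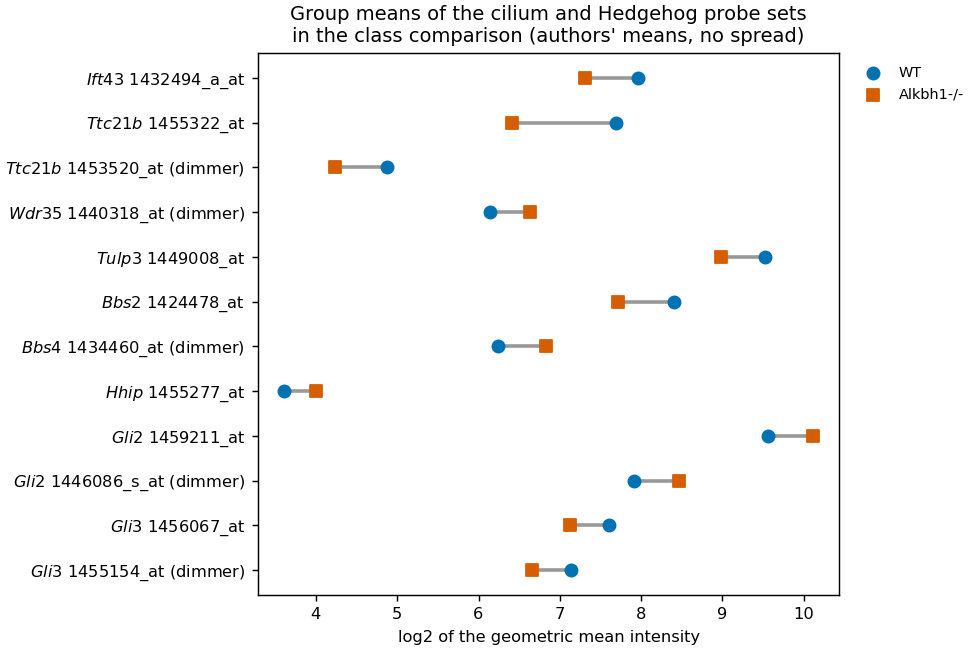
Authors' mean intensity on the log2 scale (horizontal axis) in WT (blue circles) and *Alkbh1*-/- mESCs (orange squares) for the 12 probe sets of these genes in the class comparison, without error bars because the means come without a spread between arrays. *Ttc21b* shows the widest gap, from 207 in WT to 84.8, and both probe sets of *Gli2* lie to the right in *Alkbh1*-/- mESCs while both of *Gli3* lie to the left.

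Among Hedgehog genes, *Ihh*, a ligand, had a mean log2 value of 4.06, in the lowest 5.85% of named genes, and *Dhh*, the ligand in the list of other Hedgehog genes, had one of 4.99. The receptor *Ptch1*, itself a Hedgehog target, was bright at 1428853_at, with a mean log2 value of 10.27, while its other probe sets read 5.13 and 4.40. *Smo*, the signal transducer it inhibits, was at 7.55. Neither was listed. *Hhip*, a decoy that binds ligand, had means of 12.2 in WT and 16.1 in *Alkbh1*-/- mESCs, at the bottom of the range of the array.

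*Gli2* and *Gli3* differed in opposite directions. *Gli2*, the main activator of the pathway, was higher in *Alkbh1*-/- mESCs, with means of 756 in WT and 1106 at 1459211_at (1.46-fold) and of 241 and 352 at 1446086_s_at (1.46-fold). The 2 probe sets were designed on the same transcript sequence and are not independent. *Gli3*, which yields the main repressor, was lower, with means of 194 and 139.5 at 1456067_at (1.39-fold) and of 141 and 100.9 at 1455154_at (1.40-fold), 2 probe sets of different transcript sequences. A further *Gli3* probe set, with a mean log2 value of 4.21, was not listed. *Gli1*, a target of the pathway and an activator, was at 7.39. *Sufu*, which holds the GLI factors inactive, was at 7.35, and *Kif7*, a kinesin of the ciliary tip that regulates them, at 7.63. None of these 3 was listed.

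Counted by brightest probe sets, 7 of the 45 genes were in the class comparison, 2 higher and 5 lower in *Alkbh1*-/- mESCs, where 14.9% of all named genes were listed. Of the 2 higher, *Hhip* lay at the bottom of the range of the array, where the value is limited by signal over background. Beyond a linear fold of 1.5, 3 genes were lower (*Ttc21b*, *Bbs2* and *Ift43*) and 0 were higher, against 4.99% of all named genes lower and 4.75% higher. With any probe set counted, 9 of 45 genes were listed, against 18.4% of all. By these counts the genes were listed about as often as genes on the array in general. The median log2 difference of the 7 was −0.54, and that of all 2298 listed genes was −0.44. These medians follow the share of lower genes and give no typical size, since no listed gene had a difference under 0.37 in size. In size, the median of all listed genes was 0.69, and of the 7 only *Ttc21b* (−1.29) and *Bbs2* (−0.69) reached it. Of the 2298 listed genes, 1207 (52.5%) were lower. Without X-linked genes, which the 45 do not include, 58.9% of the listed genes were lower.

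Other cilium genes were looked at as a list of 53, of which 49 were found. With the brightest probe set, 4 were in the class comparison, 3 higher and 1 lower in *Alkbh1*-/- mESCs, against 14.9% of all named genes listed, so these genes were not listed more often than others. *Hspb11*, which encodes IFT25, the IFT-B partner of IFT27, was 2.74-fold lower, with means of 419 in WT and 153. *Ofd1*, a centriolar gene on the X chromosome, was 2.05-fold higher, with means of 277 and 566. *Rfx2*, a factor for cilium genes, was 1.51-fold higher (208 and 314), as was *Tmem231*, of the transition zone (152 and 228). Of the 4 probe sets of *Rfx2*, only this 1 was listed. The brightest of the list, *Rab11a*, *Arl3* and *Ccp110*, at mean log2 values of 10.52, 10.06 and 9.77, were not listed.

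Of 26 other Hedgehog genes, 3 were listed with the brightest probe set, 2 higher and 1 lower in *Alkbh1*-/- mESCs, again against 14.9% of all named genes. *Lrp2*, a large endocytic receptor that binds SHH, was 4.21-fold lower in *Alkbh1*-/- mESCs (means of 140.0 in WT and 33.3). *Gpc3*, an X-linked glypican that restrains Hedgehog signals, was 2.17-fold higher (397 and 863). X-linked genes were mostly higher in these arrays: of 284 in the class comparison, 263 were higher in *Alkbh1*-/- mESCs, and what this shift contributes to *Ofd1* and *Gpc3* was not tested. *Csnk1a1*, *Cul3* and *Prkar1a*, the brightest of the list at mean log2 values of 12.17, 10.86 and 10.10, were not listed.

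Of 17 known Hedgehog targets, 16 were found and 5 listed with the brightest probe set, 4 lower and 1 higher in *Alkbh1*-/- mESCs, where 14.9% of all named genes were listed and 52.5% of these were lower. With so few genes, nothing about the targets as a group is read from these counts. *Mycn*, a driver of proliferation, had means of 3844 in WT and 2145 (1.79-fold lower), *Olig2*, a neural progenitor factor, 365 and 213 (1.72-fold), and *Igf2*, a growth factor, 287 and 186 (1.55-fold). *Ccnd1*, at a mean log2 value of 10.59, *Ptch1* and *Gli1* were not listed, and *Hhip* was the target with a higher mean. These targets also answer to other pathways.

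Markers of the fibroblast feeder layer had lower means in *Alkbh1*-/- mESCs where their brightest probe set was listed. So did 5 of the 7 listed cilium and Hedgehog genes, against 52.5% of all listed genes, or 58.9% without X-linked genes. Of 16 markers, all found, 6 were in the class comparison by their brightest probe set (14.9% of all named genes were), each with a lower mean in *Alkbh1*-/- mESCs. The mean intensities of these 6 summed to 5146 in WT and 2713 in *Alkbh1*-/- mESCs, a sum that leaves out the 10 other markers and is carried by *Col3a1* (2002 and 1087) and *Col5a2* (1868 and 939), so it is no measure of feeder RNA. *Col1a1* was 2.08-fold lower (527 and 253) and *Thy1* 1.43-fold. *Col1a2*, the brightest marker (mean log2 value 11.82), was not listed with that probe set but with a dimmer one, *S100a4* (9.62), *Postn* (7.92) and *Dcn* (6.88) were not listed, and *Fap* was near the bottom of the range, at 3.87. Of the 11 pluripotency markers, 6 were listed with the brightest probe set, 5 with a higher mean in *Alkbh1*-/- mESCs, among them *Nanog* (log2 difference 1.10), and *Utf1* with a lower one (−0.49). By the same count, *T* was listed among the mesendoderm markers, lower by its means of 118 and 65.0, and 0 of the neuroectoderm markers were, of which *Sox1* was listed with a dimmer probe set. Whether the cultures differed in feeder cells or in RNA per feeder cell was not tested. The part of feeder RNA in the lower values of *Ttc21b*, *Ift43*, *Bbs2*, *Tulp3* and *Gli3* was not tested either.

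**Figure D3:**
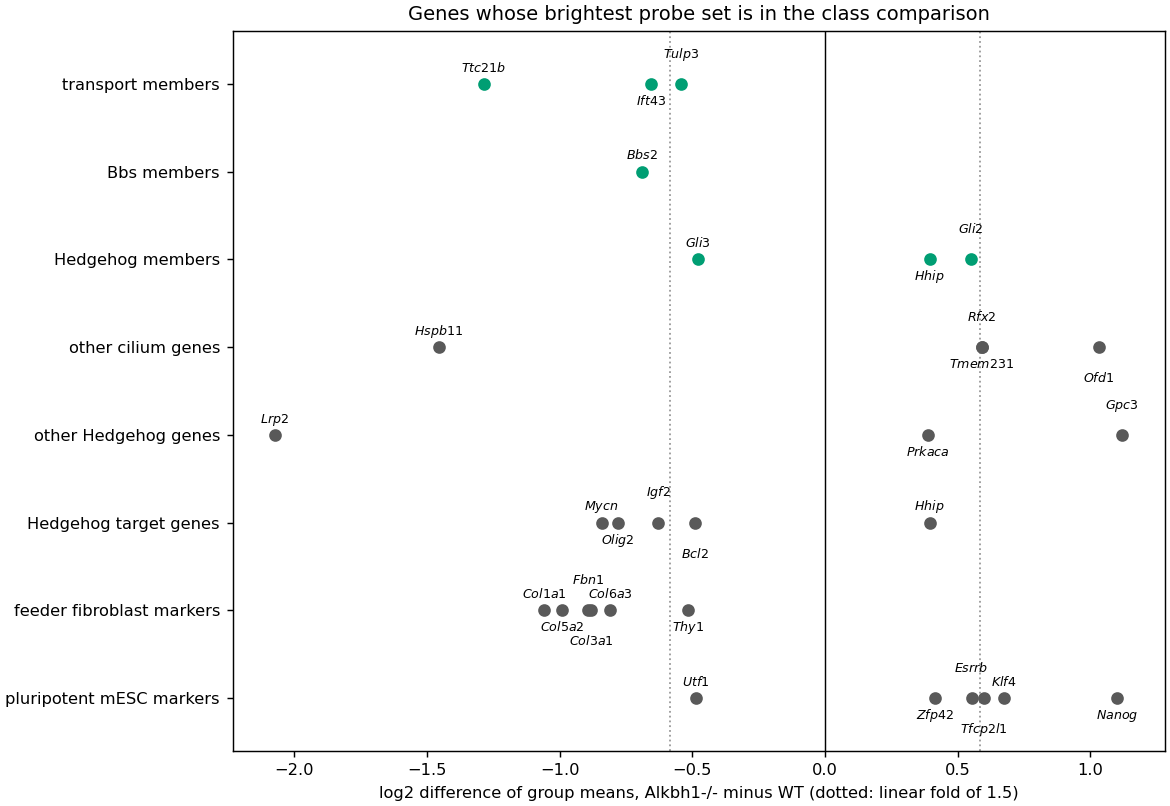
Log2 difference of the group means, *Alkbh1*-/- minus WT (horizontal axis), for each gene whose brightest probe set is in the class comparison, in rows by list; the dotted lines mark a linear fold of 1.5. *Ttc21b*, at −1.29, is the lowest of the 7 chosen genes (green), and all 6 listed fibroblast markers lie to the left of 0.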

How the data were processed

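Total RNA of 3 WT and 3 *Alkbh1*-/- mESC arrays was measured on Affymetrix Mouse Genome arrays, and the authors normalized all arrays together by the robust microarray analysis (RMA) algorithm, whose version is not given in the sources used here. The authors deposited the mean log2 value over all arrays for 33142 probe sets, chosen by a filter not given in the sources used here. The authors also had a company run a class comparison, which gives, as deposited, the geometric mean intensity in each genotype for 4326 entries. Its WT column carries a wrong class name, corrected in the description that came with the tables. Both tables also hold the authors' fold changes, test statistics and p-values, which were not used; the limma fit set in the design needs single arrays and was not run.

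In the class comparison, values do not stand beside their own identifiers. Each entry was tied to the probe set whose mean log2 value was nearest the average of its log2 group means, within 1e-06. This placed 4261 entries, 8 of them at the identifier written beside them, while 4258 of the 4261 probe sets are named somewhere in that table. All 12 probe sets of the genes described here that it names received values, and no others did. The match was also tested on simulated data, with no outcome given here, and nothing is drawn from it. Names came from RefSeq genes of assembly GRCm38.p6, through gene identifier, accession, symbol or older symbol, for 28243 probe sets (85.2%); 7 of the genes carry their symbol in the table itself. RefSeq promoters of the same build were searched for motifs. Listed means a probe set tied to an entry of the class comparison. Named are all genes of the group and *Alkbh1*. From the lists of other cilium genes, other Hedgehog genes and Hedgehog targets, those over a linear fold of 1.5 and the 3 brightest are named. Further genes (*Esrrb*, *Vash1*, *Dhh*, *Cluap1*, *Ttc26*, *Ttc30a1*, *Ttc30b* and some of the markers) were named after their values were seen. A gene of the Hedgehog lists is not reported here and was left out of their counts. Members and lists were chosen with earlier results of these data known. Precision is limited by the number of arrays. Alternatives changed the probe set of a gene, the bounds, the tolerance and the identifiers. The computations used matplotlib 3.10.9, SciPy 1.17.1, pandas 2.3.3 and Python 3.11.15.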

Additional observations from a re-analysis of the deposited data

How the results depend on the processing

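The median percentile of the 45 genes among all named genes was 50.8. It was 52.4 with the mean over the probe sets of a gene, 52.0 over the 41 genes with a plain _at probe set, 63.4 among all probe sets, and 50.6 over the 7 genes that carry their symbol in the table. The share at or above the median of all genes, 57.8%, was 77.8% with the median of all probe sets, 88.9% with percentile 25 as the bound and 8.89% with percentile 75. The 3 genes lower in *Alkbh1*-/- mESCs beyond a linear fold of 1.5 became 1 at a linear fold of 2 and 0 at a log2 difference of 1.5. The 0 genes higher became 1 with any probe set (*Bbs4*). Other tolerances of the match (1e-07, 1e-05 and 0.0001) kept these counts and the difference of *Alkbh1*, with *Gli2* unmatched at 1e-07. With identifiers read as written, 4 genes were lower and 1 was higher, *Alkbh1* was at −1.22, and *Bbs2*, *Hhip* and *Tulp3* had reversed log2 differences of 1.03, −1.71 and 0.47, because those values belong to other probe sets. No paired analysis was possible because the values used are means over arrays, with no column for a single array, and for the same reason no replicate could be left out. What depends on brightness near the bottom of the array, such as *Hhip* and *Ihh*, is limited by signal over background.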
